A study of Mus musculus with 4 samples.

Results

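The spots described here are cartilage-rich positions of 2 mouse embryo sections, taken at embryonic days E13.5 and E16.5. Members were chosen in each section separately by the levels of 4 cartilage genes, Col2a1, Acan, Matn1 and Col9a1. The score of a spot was the mean over these genes of log(1 + UMIs per 10000), and the 100 highest of 3220 kept spots at E13.5 and the 100 highest of 3588 at E16.5 were taken. They are 200 of the 7435 kept spots of the series. Embryonic cartilage is the template on which most of the skeleton forms. Its cells, the chondrocytes, secrete a matrix of type II, IX and XI collagen fibrils and of aggrecan, a proteoglycan that carries sulfated sugar chains, under the control of the transcription factors Sox9, Sox5 and Sox6. Later, chondrocytes in the middle of a template enlarge, switch on type X collagen and give way to bone, and around the notochord the vertebral cartilage is laid down by sclerotome cells.

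The study measured gene expression by position in wild-type, untreated mice on Visium slides, whose barcoded spots capture RNA from an 8 µm frozen section and count it as unique molecular identifiers (UMIs, captured molecules). The labels give 1 whole-embryo section at E13.5, 1 at E16.5 and 2 sections of esophagus at postnatal day 0, which enter no comparison here. The animals behind the sections and the plane of each section are not named, and the titles of the embryo sections name the esophagus. A spot is a small region that can hold several cells of different types. With 1 section for each stage no difference has a replicate check: intervals are exact 95% intervals and cover counting error only, and a gene is counted as higher or lower past 2-fold, with no p-value.

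The cartilage spots were shallow. They held 1214088 UMIs at E13.5 (1176 to 36087 a spot, median 10677) and 733115 at E16.5 (2579 to 27383, median 6574), against medians of 29716 and 27410 in the other kept spots. Mitochondrial transcripts made up 0.772% of their UMIs at E13.5 and 2.27% at E16.5, against 2.54% and 4.35% in the other spots. The 2 sections share 2542 spot barcodes, which are slide positions and not cells. Fewer cells in a spot and less RNA in each cell cannot be told apart in these data.

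The 4 selecting genes were high by the choice itself and carry no finding. Col2a1 was at 19759 CPM (UMIs per 1000000 UMIs of the summed spots) in the cartilage spots and 708 in the others at E13.5, and at 33963 and 456 at E16.5. The lowest member score was 3.169 at E13.5, beside 3.167 for the highest spot left out. At E16.5 these were 2.757 and 2.755. In a window of 0.1 around the limit lay 19 members and 16 other spots at E13.5, and 26 and 24 at E16.5, so the limit crosses a continuous range. The label was checked on genes the score did not use: all 9 of the listed cartilage collagens were more than 2-fold higher in the chosen spots at both stages.

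In both sections most members lay on a long curved band. At E13.5, 87 of the 100 members touched another member, and 80 belonged to a largest linked group (members joined within 4 grid steps). At E16.5, 92 touched another and 67 belonged to the largest linked group, with further groups of 12 and 11 spots. Pax1, a transcription factor of the sclerotome and the vertebral cartilage, was at 316 CPM in the cartilage spots at E13.5 against 48.7 in the others, and at 184 against 15.5 at E16.5. It was concentrated on the band: 447 CPM in the largest E13.5 group against 21.5 in the other members, and 223 against 99.9 at E16.5.

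**Figure D1:**
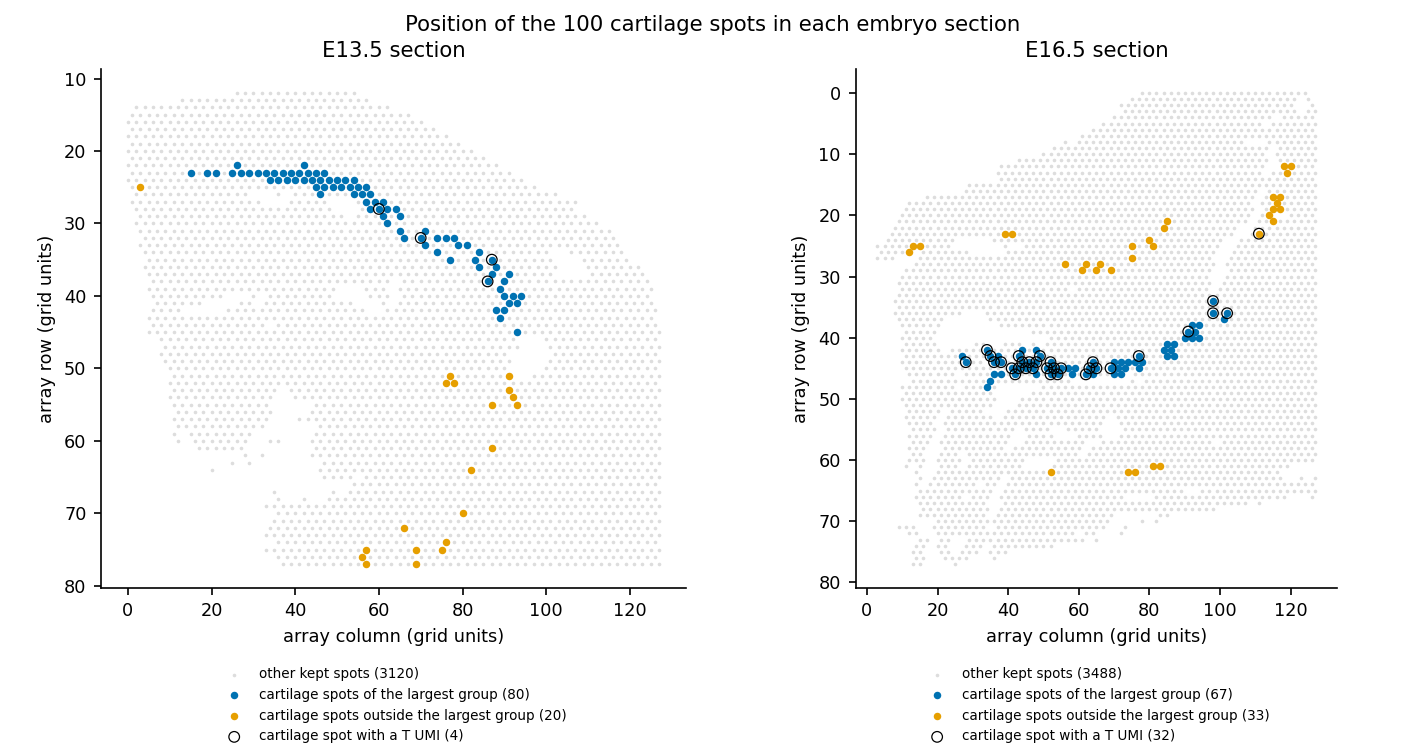
Array row and column (grid units) of every kept spot in the E13.5 section (left) and the E16.5 section (right), with the members of the largest linked group in blue, the other members in orange and members with a UMI of the notochord gene T ringed in black. The 80 and 67 blue spots form a curved band in each section, and 31 of the 32 ringed spots at E16.5 lie on it.

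The structural collagens of cartilage that did not choose the spots were far higher in them at both stages. At E13.5, 937 of 11766 genes (7.96%) were more than 2-fold higher in the cartilage spots than in the other spots, and 1963 (16.7%) were more than 2-fold lower. At E16.5 the counts were 874 of 12297 (7.11%) and 1140 (9.27%). Because the spots were chosen on this contrast, the counts only describe them. The 9 collagens of the list (types VI, IX, XI, XVI and XXVII) were higher, 9 of 9 in each section, with median log2 ratios of 3.74 and 3.52, beside -0.08 and -0.05 over all genes.

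Col9a3 (chromosome 2, 180598102 to 180622192 in GRCm38.p6; ENSMUSG00000027570) encodes a chain of type IX collagen, which sits on the surface of type II fibrils. Over single cartilage spots, from the lowest to the highest, it ran from 2482 through a median of 4973 to 9888 CPM at E13.5 and from 270.1 through a median of 3286 to 11853 CPM at E16.5. All 200 cartilage spots held a Col9a3 UMI, and the sums were 23.5-fold (22.8 to 24.1) and 37-fold (35.4 to 38.5) higher than in the other spots. Col9a2, another type IX chain, was at 2727 CPM against 133 at E13.5 and at 2011 against 60.5 at E16.5. Col11a1 and Col11a2 encode chains of type XI collagen, the core of the thin cartilage fibril. Col11a2 stood 31.8-fold (30.6 to 33) higher at E13.5 and 35.5-fold (34.1 to 36.9) at E16.5. Col11a1 was at 3267 against 192 CPM at E13.5 and at 2073 against 137 at E16.5. The type VI chains, which surround the chondrocyte but are made in many connective tissues, differed less, by 3-fold (2.72 to 3.31) for Col6a1 at E13.5.

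Non-collagen matrix genes gave the same picture, with 20 of 23 tested members of the list higher at E13.5 and 1 lower, and 21 of 25 higher at E16.5 and 0 lower. Snorc, a small membrane proteoglycan of chondrocytes, ran from 0 through a median of 698 to 3463 CPM at E13.5 and from 0 through a median of 1803 to 5491 CPM at E16.5. Its sums were 31.6-fold (28.8 to 34.5) and 42.8-fold (40.2 to 45.5) higher than in the other spots. Matrilin-3 (Matn3) and COMP (Comp) link collagen fibrils to other matrix proteins. Matn3 was at 285 CPM (256 to 317) against 8.24 at E13.5 and at 207 CPM (176 to 243) against 4.47 at E16.5. Comp was 37.4-fold (31.2 to 44.8) higher at E13.5 and 37.8-fold (34.6 to 41.3) at E16.5. Hapln1, the link protein that ties aggrecan to hyaluronan, was 25.1-fold (23.5 to 26.8) and 35.2-fold (31.5 to 39.3) higher. Cnmd (chondromodulin, a membrane protein of avascular cartilage) was 22.7-fold (21.3 to 24.1) and 44.1-fold (39.7 to 49) higher, and Chad, Epyc and Susd5 also ranked among the 12 highest genes at E13.5. The gene of this list more than 2-fold below the other spots at E13.5 was Dcn (decorin, of fibrous tissue), at 56.8 against 169 CPM.

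**Figure D2:**
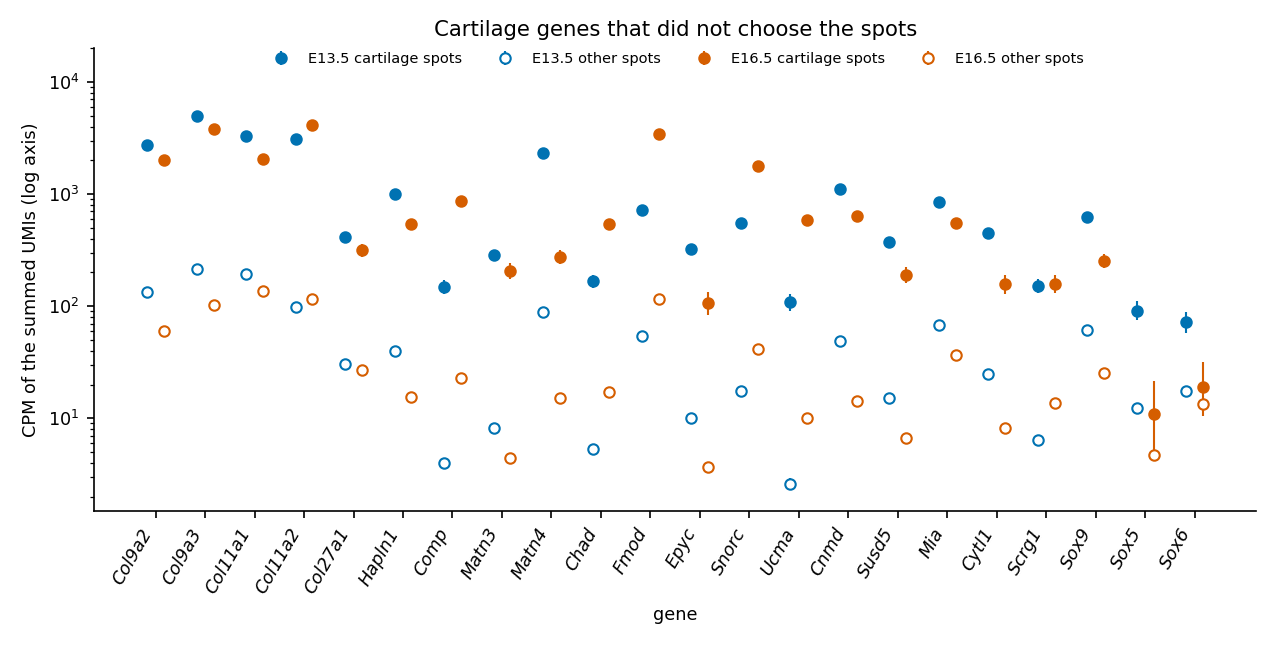
CPM of the summed UMIs (log axis) of 22 cartilage genes that were not used to choose the spots, with filled points for cartilage spots, open points for other spots, blue for E13.5, orange for E16.5 and bars for exact 95% Poisson intervals. The filled points lie above the open ones for each gene and stage, and those of Sox5 and Sox6 at E16.5 lie nearest to them.

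Of small secreted proteins, 7 of 9 tested were higher at E13.5 and 0 lower, and 8 of 10 were higher at E16.5 and 1 (Wfdc18) lower. Mia, a protein that chondrocytes release in large amounts, was at 845 against 68.1 CPM at E13.5 and 557 against 36.4 at E16.5. Ucma (chromosome 2, 4976122 to 4985748 in GRCm38.p6; ENSMUSG00000026668) encodes a secreted protein of growth-zone chondrocytes. It was 41.4-fold (33.3 to 51.3) higher at E13.5 and 58.7-fold (52.4 to 65.7) at E16.5. At E13.5, 46 of the 100 cartilage spots held a Ucma UMI (46.0%, 36.0% to 56.3% by the exact Clopper-Pearson method), against 5.90% of the deeper other spots. At E16.5, 86 of 100 held one (77.6% to 92.1%), against 19.0%. After each spot was thinned to 2500 UMIs, which left out 4 of the 100 members at E13.5 and 0 at E16.5, the shares in cartilage spots were 19.8% and 66.0%, and in the other spots 0.968% and 4.08%.

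Wwp2, chosen here after its values were seen, encodes a ubiquitin ligase, and its gene holds the cartilage microRNA miR-140 (hairpin at chromosome 8, 107551244 to 107551313, inside Wwp2 at 107436334 to 107559290, GRCm38.p6, plus strand). Wwp2 ran from 513 through a median of 3126 to 8080 CPM at E13.5 and from 157 through a median of 1479.7 to 5634 CPM at E16.5, and was 17.4-fold (16.8 to 18.1) and 24.6-fold (23.1 to 26.1) higher than in the other spots. All 200 cartilage spots held a Wwp2 UMI. The microRNA itself was not measured. Its listed mature sequence from RefSeq is shown because the host gene is among those that set these spots apart; the capitals mark the seed, bases 2 to 8.
mmu-miR-140-3p: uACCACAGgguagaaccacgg

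Sequence upstream of the matrix genes was searched for the short site bound by the Sox family, ACAAAG or ACAATG on either strand. Of 36 matrix and secreted genes higher at both stages, 29 had a promoter in the RefSeq table, and 3 of these (Epyc, Pcolce2 and Thbs3) held a match within the 250 bases before a start. By promoter this was 4 of 32 (12.5%), against 25.02% of all 32536 distinct promoters of the table. A match is a description and not a shown site. Epyc encodes a small leucine-rich proteoglycan of growth cartilage and was 32.1-fold (28.5 to 36.1) higher at E13.5. One of its promoters is shown because it holds 3 matches, marked in capitals (chr10:97646853-97647102, GRCm38.p6, plus strand).
Epyc: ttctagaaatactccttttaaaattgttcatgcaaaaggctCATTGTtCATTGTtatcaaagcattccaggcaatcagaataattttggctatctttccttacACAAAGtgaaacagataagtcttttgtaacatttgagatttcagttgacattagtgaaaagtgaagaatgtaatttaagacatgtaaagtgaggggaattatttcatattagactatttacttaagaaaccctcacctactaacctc

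Chondrocyte transcription factors were higher for 13 of 17 tested genes at E13.5 and 9 of 19 at E16.5, with 0 lower at either stage. Sox9, the regulator on which chondrocyte formation depends, ran from 0 through a median of 591 to 1655 CPM at E13.5 and from 0 through a median of 201 to 1551 CPM at E16.5. Its ratio to the other spots was 10.1-fold (9.38 to 10.9) and 10.1-fold (8.68 to 11.7), with overlapping intervals, while both levels were lower at E16.5. Sox5 and Sox6, which act with Sox9, were 7.43-fold (6.06 to 9.03) and 4.08-fold (3.25 to 5.06) higher at E13.5. At E16.5 the ratios were 2.3-fold (0.987 to 4.56) and 1.43-fold (0.778 to 2.4), and both intervals reached below 1. Foxa3, a forkhead factor of chondrocyte maturation, was 19-fold (13.6 to 26.1) higher at E13.5 and 47.1-fold (27.7 to 77.2) at E16.5. Foxc1, Foxc2, Trps1, Nfatc1 and Nfatc2 were past 2-fold in both sections.

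Genes of the growth plate signals were higher in part. Pth1r, the receptor of parathyroid hormone-related protein, ran from 0 through a median of 399 to 3848 CPM at E13.5 and from 0 through a median of 350.3 to 2546 CPM at E16.5, and was 6.14-fold (5.6 to 6.72) and 5.81-fold (5.17 to 6.5) higher. Ihh, the hedgehog ligand of prehypertrophic chondrocytes, had 12 UMIs at E13.5 and 2 at E16.5 in cartilage spots. At E13.5 this was 9.88 CPM (5.11 to 17.3) against 0.626. Of the hedgehog and PTHrP list, 6 of 13 genes were higher at E13.5 and 7 of 12 at E16.5, with 0 lower; the hedgehog receptor Ptch1 was at 142 against 60.2 CPM at E13.5. Fgfr3, the fibroblast growth factor receptor that restrains chondrocyte division, was 5.65-fold (5.06 to 6.29) higher at E13.5 and 3.59-fold (2.94 to 4.34) at E16.5. Among BMP and TGF-beta genes 10 of 30 were higher at E13.5 and 12 of 29 at E16.5. They included the BMP inhibitor Nog at 100.5 against 11.4 CPM and the joint ligand Gdf5 at 42.8 against 5.62 at E13.5. Of Wnt genes 4 of 17 and 6 of 19 were higher, with 2 and 3 lower. The Wnt inhibitors Wif1 and Sfrp5 were among them, Wif1 at 186 against 18.4 CPM at E16.5. Over all genes, 7.96% were higher and 16.7% lower at E13.5, and 7.11% and 9.27% at E16.5. The counts of lower Wnt genes were few genes from these shares, and the median log2 ratios of the Wnt list were 0.21 and 0.36.

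The machinery that makes and exports matrix was higher as well. Of genes for collagen folding and secretion, 24 of 30 were higher at E13.5 and 21 of 30 at E16.5, with 0 lower and median log2 ratios of 1.73 and 1.55. Serpinh1, the collagen chaperone, was 4.28-fold (4.15 to 4.41) and 4.13-fold (3.96 to 4.3) higher. Of the sulfation and glycosaminoglycan synthesis list, 13 of 23 were higher at E13.5 and 12 of 24 at E16.5. Papss2, which makes the sulfate donor, was at 390.4 CPM (356 to 427) against 22.2 at E13.5 and 90 CPM (69.6 to 115) against 10.2 at E16.5. Xylt1 and Csgalnact1, which start the chains, were 10-fold (8.3 to 12) and 10.2-fold (8.07 to 12.6) higher at E13.5. Glycolysis and hypoxia genes were mostly within 2-fold, with 6 of 27 higher and 3 lower at E13.5, and 3 of 28 higher and 0 lower at E16.5, beside 7.11% of all genes higher at E16.5. The lactate exporter Slc16a3 was 5.8-fold (4.86 to 6.88) and 5.54-fold (4.59 to 6.62) higher.

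Markers of several other cell types were lower in the cartilage spots, with counts that differed by type and stage. At E13.5, 11 of 12 skeletal muscle, 9 of 9 endothelial, 7 of 10 epithelial and 7 of 10 neural and glial genes were lower. At E16.5 these were 7 of 12, 1 of 9, 0 of 10 and 4 of 9, and 2 epithelial genes, the keratins Krt8 and Krt19, were higher. Over all genes, 16.7% were lower and 7.96% higher at E13.5, and 9.27% and 7.11% at E16.5. Of the 10 neural and glial genes 2 were higher at E13.5, among them Sox10, a factor of glia, at 24.7 against 11.3 CPM. Of macrophage and immune genes, 3 of 8 were lower at E13.5 and 1 of 9 at E16.5. Blood genes were lower for 7 of 8 and 5 of 5, smooth muscle genes for 5 of 5 and 0 of 5, and fat genes for 1 of 2 and 8 of 8. Of 24 tested Hox genes, which pattern the trunk along its axis, 16 were lower in the cartilage spots at E13.5, and of 20 at E16.5 1 was higher and 1 lower. The E16.5 counts of lower endothelial, immune and Hox genes were near the share of all genes. The 12 genes lowest at E13.5 included heart and nerve transcripts such as Myl7 (22.2 against 466 CPM) and Stmn3 (36.2 against 555). At E16.5 they included fat genes (Mrap, Pck1, Thrsp, Cidea) and the mast cell proteases Cma1 and Cpa3; Cidea was at 99.6 against 455 CPM.

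The gene sets past 2-fold overlapped between the stages. The stages share no spots, but the members of both sections were chosen by the same genes. The overlap is therefore no independent check, and the part of that choice in it was not tested. Higher at both were 460 genes, 49.1% of those at E13.5 and 52.6% of those at E16.5. Lower at both were 512, which is 26.1% and 44.9%. Of all tested genes, 7.96% were higher and 16.7% lower at E13.5, and 7.11% and 9.27% at E16.5. In opposite directions were 9 genes higher at E13.5 and lower at E16.5, and 15 the other way.

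The complement gene C4b and the protease inhibitor Serpina3n had the highest ratios at E13.5 among genes with a mean of at least 20 CPM. C4b ran from 0 through a median of 0 to 842 CPM, with UMIs in 48 spots, and Serpina3n from 0 through a median of 65.8 to 1701 CPM, with UMIs in 56. The sums were 48-fold (37.8 to 60.7) and 46.5-fold (37.1 to 58.2) higher than in the other spots. At E16.5 C4b was 5.36-fold (2.82 to 9.28) higher, on 13 UMIs, and Serpina3n had 5 UMIs. Both belong to families of near-identical copies, so the assignment of reads among the copies is uncertain.

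Levels of cartilage genes were lower with distance from the members, while the fibrous-tissue genes Col1a1 and Postn were highest at 1 or 2 steps. This does not hold for fibrous genes as a group. Of the perichondrium, tendon and joint list, 17 of 30 were higher in the E16.5 members than in the other spots and 0 lower. In the members and at 1, 2, 3 and 4 or more grid steps from them, Col9a3 at E13.5 was at 5007, 1412, 441, 233 and 108 CPM. At E16.5 it was at 3777, 1007, 297, 127 and 59.9. In each section every further ring was lower than the one before. Col1a1, the type I collagen of perichondrium, bone and tendon, was at 675, 1499, 1364, 815 and 673 CPM at E13.5, lower in the members than in the 3 rings around them. At E16.5 it was at 11547, 11993, 6692, 3754 and 2272, nearly as high in the members as at 1 step. Postn, a matrix protein of periosteum and perichondrium, was highest at 2 steps at E13.5 (429 CPM) and at 1 step at E16.5 (2117). Median depth also changed with distance, from 10677 UMIs a spot in the members to 26012.5 at 1 step and 30298 at 4 or more steps at E13.5, and from 6574 to 12045 and 30865 at E16.5. The part of depth in these gradients was not tested.

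**Figure D3:**
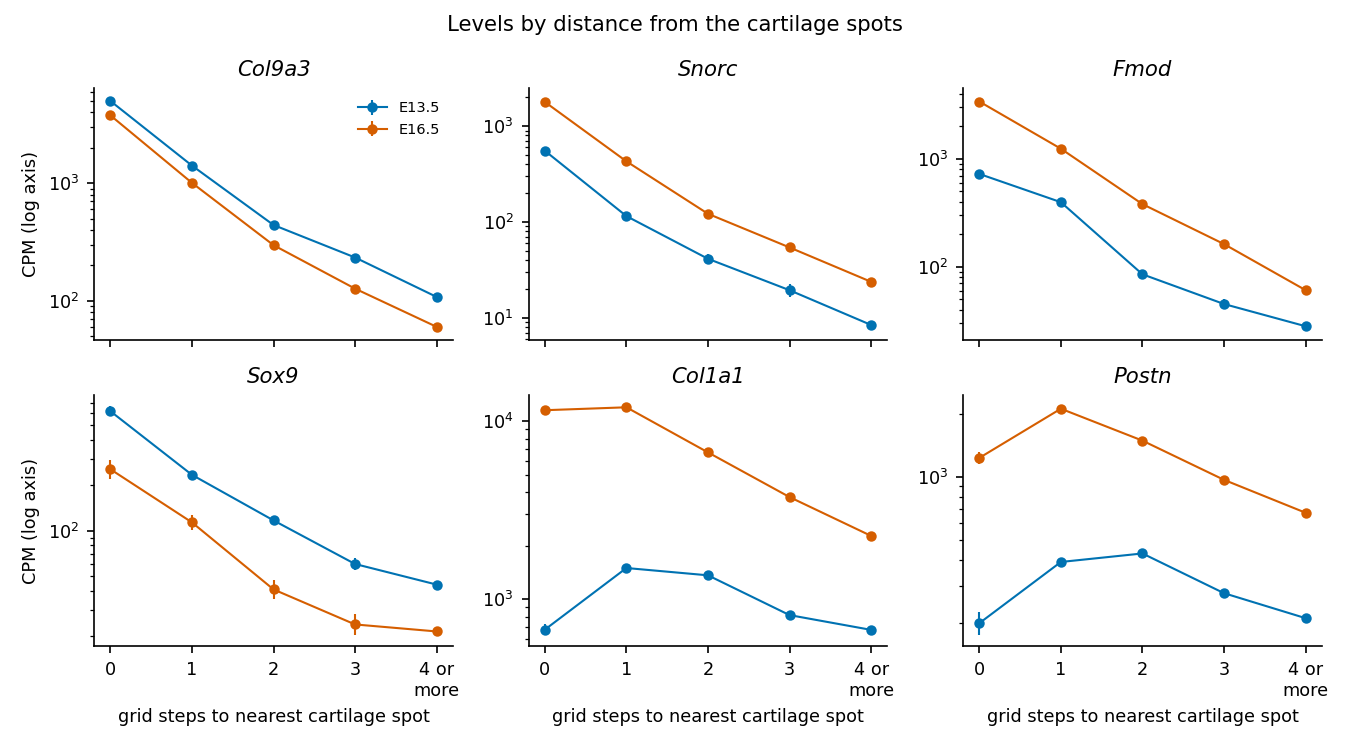
CPM of the summed UMIs (log axis) of 6 genes in spots at 0, 1, 2, 3 and 4 or more grid steps from the nearest cartilage spot, blue for E13.5 and orange for E16.5, with exact 95% Poisson intervals. Col9a3, Snorc, Fmod and Sox9 are highest at 0 steps in both sections, whereas Postn is highest at 1 or 2 steps and Col1a1 at 1 step.

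Between the stages, cartilage spots differed in 1767 genes more than 2-fold higher at E16.5 (15.1% of 11719) and 1161 more than 2-fold lower (9.91%). In the other spots of the same 2 sections 1002 of 12314 genes (8.14%) were higher and 589 (4.78%) lower. Each stage is 1 section, so stage, animal, section plane and library cannot be told apart.

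Of matrix glycoproteins and proteoglycans, 13 of 25 were higher at E16.5 and 3 lower, beside 15.1% and 9.91% of all genes. The median log2 ratio was 1.32, beside -0.09 over all genes. Elsewhere 10 of 25 were higher and 6 lower. Fibromodulin (Fmod), a small proteoglycan that binds collagen fibrils, ran from 0 through a median of 554 to 3206 CPM at E13.5 and from 345 through a median of 2862 to 10966 CPM at E16.5. The sum was 4.69-fold (4.34 to 5.07) higher in cartilage spots and 2.15-fold (2.08 to 2.22) in the other spots. Biglycan (Bgn), of the same family, was 5.64-fold (5.26 to 6.06) higher in cartilage and 2.84-fold (2.78 to 2.89) elsewhere. Comp was 5.86-fold (4.96 to 6.95) higher, against 5.8-fold (5.21 to 6.48) in the other spots. Ucma was 5.46-fold (4.48 to 6.69) higher, Snorc 3.23-fold (2.94 to 3.55) and Chad, a leucine-rich cell-binding protein, 3.24-fold (2.73 to 3.86). In the other spots these 3 were 3.85-fold (3.35 to 4.43), 2.38-fold (2.25 to 2.52) and 3.23-fold (2.93 to 3.57) higher.

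The 3 genes of that list lower at E16.5 were Matn4, Epyc and Vcan (versican, of looser tissue). Matn4 (matrilin-4; chromosome 2, 164389393 to 164405160 in GRCm38.p6; ENSMUSG00000016995) ran from 794 through a median of 2678 to 6826 CPM at E13.5, when all 100 spots held a UMI, and from 0 through a median of 0 to 2008 CPM at E16.5, when 42 did. The sums were 2334 CPM (2249 to 2422) and 277 CPM (240.1 to 318). In the other spots Matn4 was also lower, at 88 and 15.1 CPM. The type IX and XI collagen genes stayed within 2-fold: Col9a3 had a log2 ratio of -0.41, Col9a2 -0.44, Col11a1 -0.66 and Col11a2 0.41. The type VI chains Col6a1, Col6a2 and Col6a3 were the 3 of 9 listed collagens past 2-fold, all higher at E16.5.

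Fibrous collagens were far higher in the E16.5 cartilage spots. Col1a1 (chromosome 11, 94936224 to 94953042 in GRCm38.p6; ENSMUSG00000001506) ran from 0 through a median of 559 to 2551 CPM at E13.5 and from 2164 through a median of 8952 to 33006 CPM at E16.5. The ranges overlapped only between 2164 and 2551 CPM. The sums were 675 CPM (629.96 to 723) and 11547 CPM (11302 to 11795), 17.1-fold (15.9 to 18.4) higher, against 3.66-fold (3.63 to 3.69) in the other spots. At E13.5 Col1a1 in cartilage spots was 0.867-fold (0.809 to 0.929) the level of the other spots, and at E16.5 4.05-fold (3.97 to 4.14). Col1a2 was 9.96-fold (9.37 to 10.6) higher at E16.5, and Col5a2, Thbs2 and Tnmd (a tendon gene) had log2 ratios of 2.65, 3.02 and 5.71. Of the perichondrium, tendon and joint list, 13 of 29 genes were higher and 4 lower, against 9 of 28 and 3 in the other spots. Over all genes 15.1% were higher and 9.91% lower in cartilage spots, so the 4 lower are near the share. Of osteoblast and osteoclast genes, 8 of 12 were higher and 1 (Runx2) lower, and in the other spots 7 of 12 were higher and 1 lower; Ibsp was at 3.29 and 70.9 CPM, while Bglap, made by mature osteoblasts, had 0 and 1 UMIs. The share of bone or fibrous cells within these spots was not tested.

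**Figure D4:**
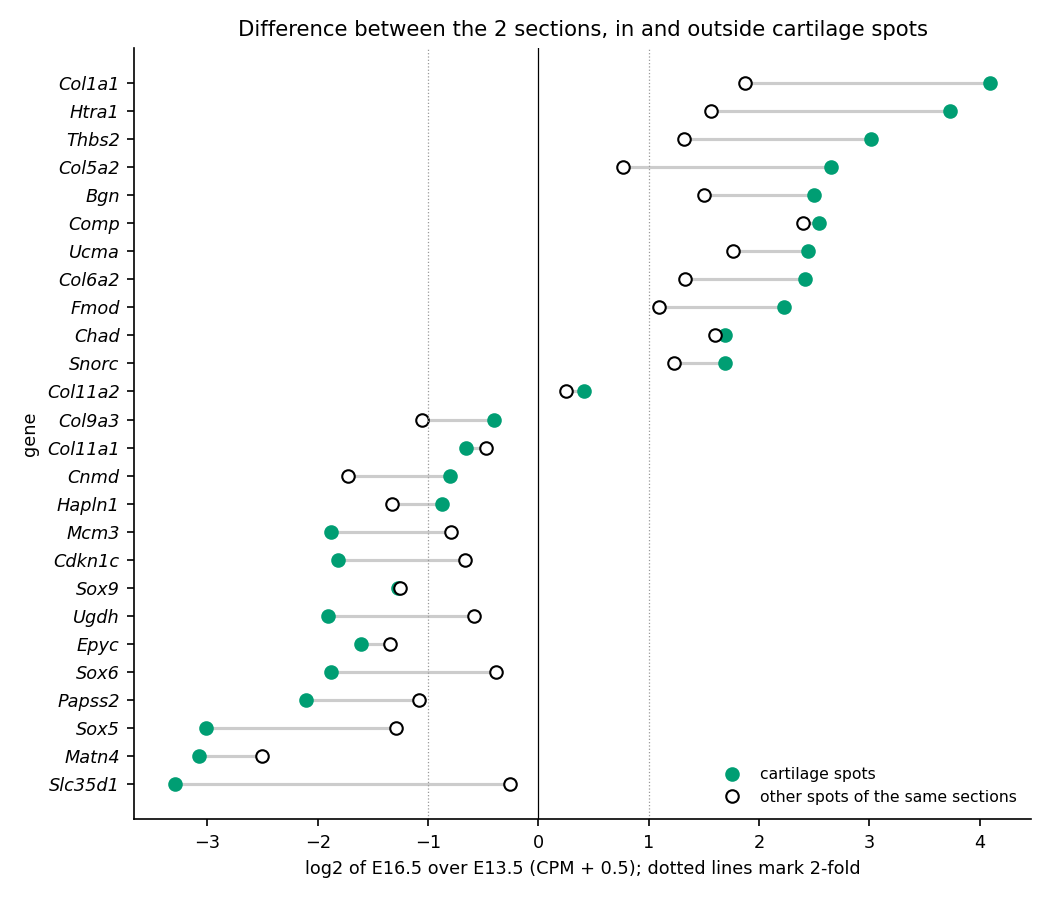
The log2 ratio of E16.5 over E13.5 (CPM + 0.5) for 26 genes, filled green in cartilage spots and open in the other spots of the same sections, with dotted lines at 2-fold. Col1a1 (4.09) lies at the upper end and Slc35d1 (-3.29) at the lower end in cartilage spots, while Sox9 has nearly the same ratio in and outside them.

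The Sox factors were lower at E16.5. Sox9 was at 618 CPM (574 to 664) and 255 CPM (219.8 to 294), with a log2 ratio of -1.27 in cartilage spots and -1.26 in the others. Sox5 had 111 UMIs in 54 of the E13.5 spots and 8 in 7 of the E16.5 spots. Its log2 ratio was -3.01 in cartilage and -1.29 elsewhere, and that of Sox6 -1.88 and -0.38. After thinning to 2500 UMIs, 12.5% of E13.5 and 2% of E16.5 cartilage spots held a Sox5 UMI. Of the chondrocyte factor list, 7 of 20 were lower at E16.5 and 1 (Bhlhe40) higher, against 4 and 1 of 15 in the other spots. Of all genes, 9.91% were lower and 15.1% higher in cartilage spots.

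In the sulfation and glycosaminoglycan synthesis list 7 of 24 genes were lower too, with 2 higher, beside 9.91% and 15.1% of all genes. The median log2 ratio was -0.35. In the other spots 1 of 23 was lower and 0 higher. Slc35d1 (chromosome 4, 103170649 to 103222269 in GRCm38.p6; ENSMUSG00000028521) encodes the transporter that brings nucleotide sugars for chondroitin sulfate into the endoplasmic reticulum. It ran from 0 through a median of 72.7 to 424 CPM at E13.5, with UMIs in 60 spots, and from 0 through a median of 0 to 341 CPM at E16.5, with UMIs in 7. The sums were 98 CPM (81.2 to 117) and 9.55 CPM (3.84 to 19.7). In the other spots the level was 11.2 and 9.35 CPM, and at E16.5 the interval of the cartilage spots holds the level of the others. Papss2, Ugdh (which makes the uronic acid precursor) and Slc26a2 (the sulfate transporter) had log2 ratios of -2.11, -1.91 and -1.38 in cartilage and -1.08, -0.59 and -0.22 in the other spots. The 2 genes of the list that were higher were Chsy3 and Galnt3, at 36.8 and 13.6 CPM at E16.5.

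Cell cycle genes were lower at E16.5 for 9 of 24 listed, with 0 higher and a median log2 ratio of -0.91. In the other spots 0 of 24 were past 2-fold, with a median of -0.57. Of the 9, 5 encode subunits of the replication helicase: Mcm3 had log2 ratios of -1.88 in cartilage and -0.79 elsewhere, and Mcm4 -1.80 and -0.96. Mki67, a general mark of cycling cells, was at 167 and 108 CPM, a log2 ratio of -0.63. The cell cycle inhibitor Cdkn1c was also lower, at 1702 CPM (1629 to 1777) and 483 CPM (434 to 536). Of 11 listed genes of cell cycle exit, 1 was higher, 2 were lower and 8 lay within 2-fold in cartilage spots. These counts were few genes from the 15.1% higher and 9.91% lower of all genes. The median log2 ratio of the 11 was 0.30, beside -0.09 over all genes. In the other spots 2 of the 11 were higher and 0 lower.

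Matrix proteases and their inhibitors were higher for 10 of 20 genes and lower for 1, against 6 and 0 of 20 in the other spots. In cartilage spots 15.1% of all genes were higher and 9.91% lower. Htra1, a secreted protease that cuts cartilage matrix proteins, ran from 0 through a median of 0 to 385 CPM at E13.5 and from 0 through a median of 436 to 1706 CPM at E16.5. Its log2 ratio was 3.73 in cartilage and 1.57 in the other spots. Mmp13, the collagenase of late chondrocytes and osteoblasts, had 0 UMIs at E13.5 and 26 at E16.5, but at E16.5 its 35.5 CPM in cartilage spots was close to the 31.8 elsewhere.

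The stage ratios of cartilage and other spots were set against each other gene by gene. In 1538 of 11719 genes (13.1%) the cartilage log2 ratio exceeded that of the other spots by more than 1, and in 653 (5.57%) it lay more than 1 below. Genes entered by a mean of at least 5 CPM in the cartilage sums alone. Serpina1e, T and Serpina3n, at the extremes, did not reach that mean in the other spots. The 12 highest differences were led by Serpina1e (8.35), Sostdc1 (4.90) and the notochord factor T (4.73). In E16.5 members, 80 Serpina1e UMIs lay in the spots that held a T UMI and 3 in those without, and for Sostdc1 these were 28 and 3. For T itself this holds by definition, and the split by T was made after its values were seen. Cilp2, a cartilage intermediate layer protein, followed at 4.51: it had 1 UMI at E13.5 and 42 at E16.5 in cartilage spots. The lowest were Serpina3n (-3.66), Asb4 (-3.37), Dio2 (-3.36), the BMP regulator Bmper (-3.19) and Slc35d1 (-3.04). The difference rests on both sections' other spots, whose tissues were not matched between the stages.

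The genes with the highest stage ratios in cartilage spots were largely products of other tissues. The 12 highest were Sftpc, Krt13, Smgc, Ckm, Fabp4, Cox8b, Bpifa2, Serpina1e, Krt4, Gh, Scgb3a2 and Trbc2, markers of lung, squamous epithelium, salivary gland, muscle, fat, pituitary and lymphocytes among others. Sftpc, the lung surfactant protein C, had 0 UMIs at E13.5 and 300 at E16.5 in cartilage spots (409 CPM), at least 166-fold higher against a floor of 3 counts over the group. In the other spots it was at 2.54 and 338 CPM. The summed skeletal muscle list was at 406 CPM at E13.5 and 5640.3 at E16.5 in cartilage spots, beside 1659 and 12967 elsewhere. Over single cartilage spots it ran from 1570.3 to 33471 CPM with a median of 5474 at E16.5. The epithelial list was at 67.5 and 1304 CPM, and the fat list at 27.2 and 1525. No gene of the muscle or epithelial list was at 0 in the cartilage spots at either stage, and 3 of the fat list were at 0 at E13.5. The part of transcripts from other tissues in the stage ratios was not tested. At the low end stood the liver products Afp, Ttr and Alb. Afp had 99 UMIs at E13.5 and 0 at E16.5 in cartilage spots, against 344 and 1.57 CPM in the other spots.

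Within the E13.5 members the curved band differed from the other 20 spots. Ucma had 131 UMIs on the band (156 CPM) and 0 elsewhere, at least 19.3-fold higher against 3 counts over the group. C4b had 116 and 0, at least 17.1-fold. Fmod was at 1011 against 77.8 CPM, Snorc at 756 against 99.3 CPM, Col6a1 at 478 against 72.5 CPM and Ndufa4l2, a mitochondrial subunit of hypoxic cells, at 235 against 13.4 CPM. The 2 sets were closer in Col9a3 (5432 and 4048 CPM) and Sox9 (631 and 588) than in these genes. The other members were higher in muscle genes (Mylpf 26.1 against 242 CPM, band first), in Gdf10 (41.6 against 260.3 CPM) and in the limb and head mesenchyme factor Prrx1 (46.3 against 139.6 CPM). Regional factors were read off the band on few UMIs. Alx1, a factor of the face, had 10 UMIs in the group of 6 spots (45.1 to 173 CPM), 6 in 1 of the groups of 3, 0 in the other small groups and 1 on the band. Barx1 had 9 UMIs in the other group of 3 (83.1 to 345 CPM), 0 to 3 in each of the other small groups and 4 on the band. Hand2 had 5 UMIs in that group of 3 (32.8 to 236 CPM), 0 in the other small groups and 5 on the band. The other members were deeper, with a median of 17969.5 UMIs a spot against 9647.5 on the band.

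Within the E16.5 members, UMIs of T lay almost entirely on the band. T (brachyury, the defining transcription factor of the notochord; chromosome 17, 8434423 to 8442496 in GRCm38.p6; ENSMUSG00000062327) had 160 UMIs in 32 of the 100 cartilage spots, from 0 to 1706 CPM over the spots with a median of 0. The sum was 218 CPM (186 to 255) against 3.46 in the other spots, 63-fold (52 to 76.1) higher. At E13.5 T had 5 UMIs in 4 members (4.12 CPM) and lay higher in the ring touching them, at 9.23 CPM. After thinning to 2500 UMIs, 20% of members and 1.32% of other spots held a T UMI at E16.5. Of the 160 UMIs 159 lay on the band and 1 outside it. Of the 10 notochord list genes, 4 of 8 tested were higher in cartilage spots at E16.5 (T, Krt8, Krt19 and Shh) and 0 lower. The list was at 1494 against 473 CPM, but shares its keratins with epithelium.

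The 32 members with a T UMI were compared with the 68 without, as a description of spots chosen by T after its values were seen. The genes other than cartilage matrix named for this split were likewise taken for their differences. Serpina1e was at 309.8 CPM (246 to 386) in the former and 6.32 CPM (1.3 to 18.5) in the latter, and Klk10, a secreted protease, at 209 CPM (157 to 273) and 12.6 CPM (4.64 to 27.5). Serpina1e is 1 of several near-identical genes, so its assignment is uncertain. The carbonic anhydrase gene Car3 was at 5624 CPM (5338 to 5920.5) and 543 CPM (479 to 614), and the cyclooxygenase gene Ptgs1 at 686 CPM (588 to 794) and 59 CPM (39.2 to 85.2). Krt8 and Krt19, keratins of notochord cells as well as of simple epithelia, were at 1049.6 CPM (928 to 1182) and 128 CPM (98.2 to 165), and at 581 CPM (492 to 682) and 105 CPM (78.1 to 139). Cartilage genes differed among themselves in this split. Snorc was at 1813 CPM (1652 to 1984) with T and 1779 CPM (1661 to 1903) without, and Fmod at 3462 CPM (3239 to 3697) and 3363 CPM (3199.8 to 3532), so the intervals of each overlapped. Col9a3 was at 2405 CPM (2219.7 to 2602) and 4523 CPM (4334 to 4718), and Matn3 and Matn4 were lower with T, Matn3 at 54.2 CPM (29.6 to 91) and 291 CPM (244 to 343). The split also follows position, since 31 of the 32 spots with T lay on the band, but only 36 of the 68 without. Matn4 was at 65.8 CPM with T, beside 55.7 CPM on the whole band and 760 CPM in the other members. For Matn3 these were 54.2, 117 and 404 CPM. The part of position in the split was not tested. Of other notochord factors, Shh had 6 UMIs and Foxa2 3 in all 100 members, and Noto had 0. Median depth was 7174 UMIs in the spots with T and 6218 in those without. The epithelial list, at 1304 CPM in cartilage spots and 609 elsewhere, holds Krt8 and Krt19 too, and the part of epithelium in these values was not tested.

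**Figure D5:**
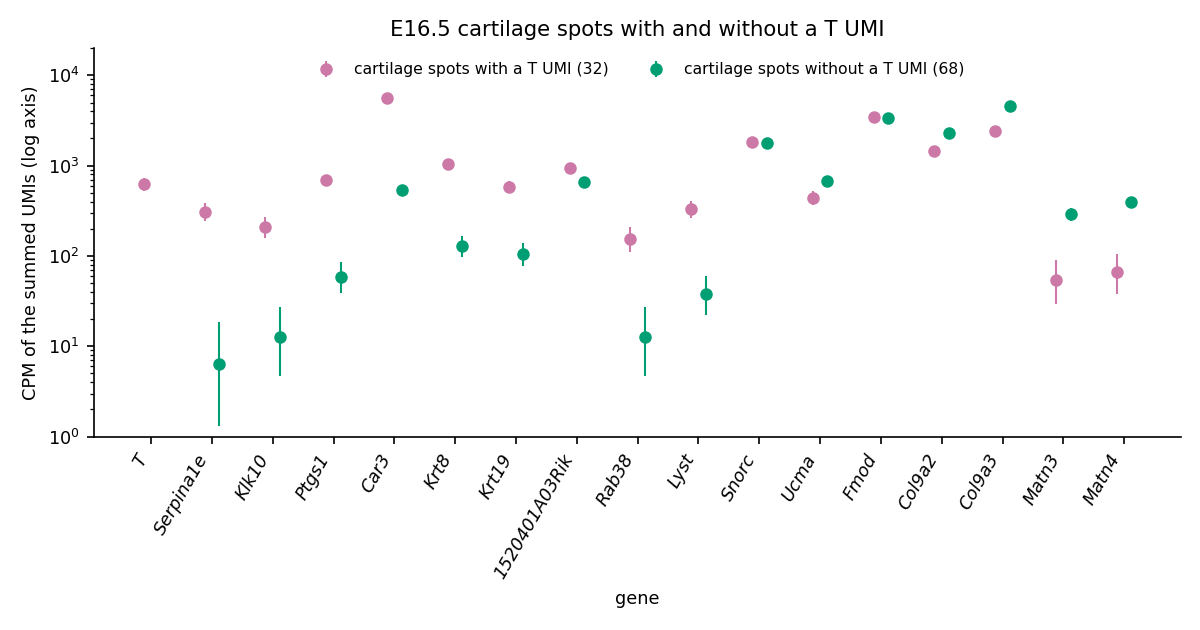
CPM of the summed UMIs (log axis) in the E16.5 cartilage spots with a T UMI (32, pink) and without (68, green) for 17 genes, with exact 95% Poisson intervals and a gene with 0 UMIs not drawn. Serpina1e, Klk10, Ptgs1, Car3, Krt8, Krt19, Rab38 and Lyst lie higher in pink, Matn3 and Matn4 higher in green, and the intervals of Snorc and Fmod overlap. Of the pink spots 31 lie on the band, and of the green ones 36.

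The gene with the highest ratio at E16.5, among those with a mean of at least 20 CPM, was 1520401A03Rik (chromosome 17, 23704608 to 23726451 in GRCm38.p6; ENSMUSG00000043747). Its end overlaps Pkmyt1, and since the counting strand is not stated, reads of overlapping genes cannot be told apart; this also holds for Matn4 with Rbpjl and Col10a1 with Nt5dc1. It ran from 0 through a median of 417 to 5229 CPM, with UMIs in 73 spots. The sum was 758 CPM (697 to 824) against 7.77, 97.6-fold (87.4 to 109) higher, and at E13.5 11.6-fold (6.52 to 19.3) higher. Unlike Serpina1e it was abundant in members without T, at 653 CPM (582 to 729.6), as well as with it, at 953 CPM (837 to 1079.6). Meltf, which encodes an iron-binding surface protein, was 49.7-fold (37.3 to 65.5) higher at E16.5 and 22.9-fold (16.7 to 31) at E13.5.

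Outside the band, the 11-spot group at E16.5 held Sftpc at 2806 CPM, against 203 on the band, and the 12-spot group held Matn4 at 1117 CPM against 55.7. Matn4 was thus low on the E16.5 band and not in the group of 12 or that of 3 (1368 CPM). Matn3 followed the same order, at 583 CPM in the group of 12 and 117 on the band. Ucma, with 0 UMIs off the band at E13.5, was at 569 CPM off it and 599 on it at E16.5.

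Col10a1, the type X collagen that marks hypertrophic cartilage, was sparse in the members. It had 0 UMIs in the whole E13.5 section, which allows up to 0.0304 CPM by 3 counts. At E16.5 the section held 630 UMIs in 291 spots, of which 7 UMIs lay in 6 members, at 9.55 CPM (3.84 to 19.7) against 5.93 elsewhere. In the rings at 1, 2 and 3 steps Col10a1 was at 22, 17 and 6.89 CPM. None of the 23 spots with at least 5 Col10a1 UMIs was a member. Of these, 10 lay within 3 steps of a member, their median rank by score was 406, and their summed Col2a1 was 2390 CPM. The Col10a1-rich spots thus lie outside the 100 chosen. The hypertrophy and mineralization list as a whole was higher in members, at 1908 CPM against 938 in the other spots of the E16.5 section. In that comparison 5 of 13 genes were higher (Pth1r, Enpp1, Dlx5, Mgp and Sp7) and 0 lower, beside 7.11% and 9.27% of all genes. Between the stages in cartilage spots, 5 of 13 were higher at E16.5 and 2 (Ihh and Panx3) lower, beside 15.1% and 9.91% of all genes.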

How the data were processed

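Space Ranger 2.0.0 wrote the deposited counts per the file headers, as UMIs per gene and spot for 32285 genes. The genome build was mm10 per the submitters' processing notes. Other alignment steps and the counting strand are not given in the sources used here. Spots over tissue with at least 500 UMIs were kept, and UMIs were summed over cartilage spots and over all other kept spots of a section. Sums were scaled to CPM, and log2 ratios were taken after adding 0.5 CPM. Genes with a mean of at least 5 CPM in a comparison were counted as higher or lower past 2-fold, leaving out the 4 selecting genes. For the difference between the stage ratios, that mean was taken over the cartilage sums alone. Exact Poisson, conditional and Clopper-Pearson 95% intervals cover counting error only; UMIs of 1 section are no replicates, and no test was run. A floor of 3 counts over a group stands for 0. Shares of spots with a UMI were also taken after thinning each spot to 2500 UMIs. Named genes were the 12 highest and 12 lowest log2 ratios with a mean of at least 20 CPM, leaving out mitochondrial and blood genes, and members of the gene lists. Coordinates and sequences are RefSeq's for GRCm38.p6, joined by symbol for 26335 of the 32285 genes.

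The members and the gene lists were chosen with earlier results of these data known. Of the planned comparisons, a split of the members by Col10a1 could not be formed, since too few held a UMI. Alternatives varied the number of members, the depth limit, the score's genes, the pseudocount, the filter, the scaling and the comparison spots. The counting script was checked on simulated data. Tools were Python 3.11.15 with numpy 2.4.6, scipy 1.17.1 and pandas 2.3.3, and R 4.3.3 with edgeR 4.0.16 for its TMM factors.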

Additional observations from a re-analysis of the deposited data

Results flagged for a closer look

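For 3 of the named genes the ratio of cartilage over other spots was past 2-fold in opposite directions at the 2 stages, and the difference was not tested. Over all genes there were 9 and 15 such cases. The log2 ratio of Asb4 was 3.37 lower at E16.5 than at E13.5 (a difference of -3.373): it was at 89.8 CPM in cartilage spots and 30.5 in the others at E13.5, and at 2.73 and 11.0 at E16.5, where the ratio rests on 2 UMIs (0.248, 0.0300 to 0.899). Bmper, a secreted BMP regulator, had a difference of -3.185, with 58.5 and 13.3 CPM at E13.5 and 5.46 and 12.2 at E16.5, where the ratio rests on 4 UMIs and its interval includes 1 (0.448, 0.122 to 1.15). Sostdc1, a secreted BMP and Wnt inhibitor, had a difference of 4.90, with 2.47 (3 UMIs) and 15.2 CPM at E13.5 and 42.3 and 7.08 at E16.5. Of its UMIs in E16.5 members, 28 lay in spots with a T UMI (108 CPM) and 3 in those without (6.32 CPM). The higher E16.5 level of Sostdc1 thus rests on the spots that held T. Cartilage transcripts were also read in the postnatal esophagus sections, which enter no comparison. Col9a3 had 13 UMIs in replicate 1 (1.27 CPM) and 14 in replicate 2 (1.90 CPM). Col9a2 had 77 and 76, while Snorc and Ucma had 0 in both, with 3-count floors of 0.292 and 0.408 CPM.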

How the results depend on the processing

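Of 98 recomputed counts of genes, 81 lay within 1.5 times the main count, which does not mean that the same genes were counted. The filter on low values moved most of the other 17. With a mean of at least 20 CPM, 847 genes were lower at E13.5, 540 higher and 487 lower at E16.5, 688 higher and 595 lower at E16.5 than at E13.5 in cartilage, and the stage ratio (log2) in cartilage lay more than 1 above that of other spots for 526 and more than 1 below for 258. With no filter these were 4012, 1552, 3045, 3903, 2560, 3215 and 1910, and 1454 were higher at E13.5, since genes with few UMIs then count. The 653 genes with a lower stage ratio in cartilage than in other spots became 1101 with the 50 highest spots of each section. With the 200 highest they became 384, and the cause was not tested. With the 200 highest, the share of the main genes kept ran from 42.27% (these 653) to 77.8% (genes higher at E16.5). The 1140 genes lower at E16.5 became 769, within 1.5 times, but 53.95% of them were kept. With the 50 highest the shares ran from 68.45% to 87.51%. TMM scaling moved the median of all genes by 0.129 (log2) for the stage ratio of other spots and by at most 0.0664 in the other comparisons. Over named genes, 993 of 1176 recomputed ratios moved by no more than their counting half-interval, 181 moved further and 2 reversed. Both reversals were T at E16.5 without the spots that held a T UMI, which leaves 0 UMIs by construction: -2.99 for cartilage over other spots and -4.04 for the difference between stages. Of 1354 medians over gene lists, 1268 lay within the median counting half-interval of the list's genes (log2), 86 moved further and 0 reversed. A median could count as reversed only if its main value was at least 2-fold. A change of sign in smaller medians was not counted, while for named genes any change of sign was. The settings with the largest linked group alone and without the T spots were chosen after seeing the data. No paired analysis was possible because each stage is 1 section. In the cartilage spots 3 UMIs correspond to 2.47 CPM at E13.5 and 4.09 at E16.5, which limits genes such as Ihh and Foxa2.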

Other observations

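Several groups of genes have not been described above. Of the FGF list, 6 of 10 genes at E13.5 and 5 of 14 at E16.5 were higher in cartilage than in other spots. The decoy receptor Fgfrl1 was at 186 against 28.2 CPM at E13.5 and 98.2 against 40.1 at E16.5. Spry1 and Dusp6, feedback inhibitors of FGF signalling, were the 2 lower genes at E13.5, at 5.77 against 20.4 and 13.2 against 27.1 CPM. Over all genes, 7.96% were higher and 16.7% lower at E13.5, and 7.11% and 9.27% at E16.5, so 2 of 10 lower is near the share. Of the perichondrium, tendon and joint list, 10 of 27 genes were higher in cartilage spots and 2 lower at E13.5, and 17 of 30 higher and 0 lower at E16.5. Erg, a factor of joint cartilage, was at 42.8 against 11.8 CPM at E13.5 and 31.4 against 7.64 at E16.5. Prg4, the lubricin of joint surfaces, was at 1.65 and 40.9 CPM in cartilage spots at the 2 stages, the first below the 3-count floor of 2.47 CPM.

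Endothelial genes were higher at E16.5 than at E13.5 in cartilage spots for 7 of 9, and for 0 of 9 in the other spots. Of all genes, 15.1% and 8.14% were higher. Their summed level was 129 CPM at E13.5 and 341 at E16.5 in cartilage spots, against 398 and 527 elsewhere. Of Hox genes, 4 of 20 were higher and 1 lower at E16.5 in cartilage spots, few genes from the 15.1% and 9.91% of all genes. In the other spots 0 of 23 were higher and 12 lower, beside 8.14% and 4.78% of all genes. Car9, a carbonic anhydrase of low-oxygen tissue, was at 27.3 CPM in cartilage spots at E16.5, against 0.714 elsewhere. At E13.5 Car9 was at 0.824 CPM in cartilage spots, below the 3-count floor of 2.47 CPM. Of its list, 5 of 28 genes were higher at E16.5 in cartilage spots (Car9, Slc2a3, Egln3, Hk1 and Ndrg1) and 0 lower, a share near the 15.1% of all genes, and 4 of 26 were higher in the other spots. Ldha was at 1324 and 1312 CPM in cartilage spots. Cyclin D2 (Ccnd2) was the cell cycle gene higher in cartilage spots at both stages, at 362 against 146 and 235 against 87.6 CPM.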
